A study of Mus musculus with 16 samples.

Results

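The interaction of the R6/2 transgene with DREAM gene dose was measured in mouse striatum as a difference of differences. For each gene, the difference between R6/2 x DREAM+/- and DREAM+/- striatum was taken on the log2 scale, and the difference between R6/2 and wild-type striatum was subtracted from it. A positive interaction thus means that the R6/2 difference was higher, or less negative, on the DREAM+/- background. All 16 arrays of the series entered each value, 4 from each of 4 genotypes, and 13011 of 18193 genes with an unambiguous probe set were bright enough to be tested. No gene was picked by its values for this set: the members are all genes tested.

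R6/2 x DREAM+/- mice carried the R6/2 transgene and 1 disrupted copy of the DREAM gene, DREAM+/- mice carried the disrupted copy alone, R6/2 mice carried the transgene alone, and wild-type mice carried neither. The strain of all groups is given as B6xCBA, so all animals were of mixed strain. R6/2 is a fragment model of Huntington's disease with early onset, in which a transgene encodes the exon 1 piece of mutant huntingtin, and the transgene was not measured by any probe set used here. DREAM knockout mice were crossed with R6/2 mice to obtain the combined genotype. Neither ages nor sexes are stated, nor how many animals stand behind an array. The labels call the replicates biological, and p-values measure the spread between these samples. RNA came from the whole striatum although a label names striatal neurons, so in these bulk samples fewer cells of a type and less RNA per cell cannot be told apart.

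DREAM (downstream regulatory element antagonist modulator, also called calsenilin or KChIP3, gene Kcnip3) is a neuronal calcium sensor. In its calcium-free form it binds DNA elements with a GTCA core downstream of the start of transcription and represses the gene, and on binding calcium it leaves the DNA. It also sits on Kv4 potassium channels as an auxiliary subunit. Medium spiny neurons, the output neurons of the striatum, lose expression of many receptors, peptides and activity-dependent genes in Huntington's disease models. Immediate early genes such as Fos, Egr1 and the Nr4a family are switched on within minutes of synaptic activity through calcium, cAMP and MAP kinase signals, many of them through cAMP response elements in their promoters.

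Such activity-dependent genes held more members with an unadjusted p under 0.05 than any other of the 24 lists examined, and 3 of their promoters are shown because the values below turn on these genes. Each stretch runs from 250 bases before to 50 bases after the annotated start, is read 5′ to 3′ on the gene's own strand, and comes from RefSeq on GRCm38.p6. Capitals mark TGACG or its reverse complement CGTCA, the core of a cAMP response element, and GTCA or its reverse complement TGAC, the core of a DREAM element. The motifs overlap, since TGACG contains TGAC and CGTCA contains GTCA. Nr4a2 is at chr2:57123954-57124253 on the minus strand, Nr4a3 at chr4:48045055-48045354 on the plus strand and Fos at chr12:85473640-85473939 on the plus strand.
Nr4a2: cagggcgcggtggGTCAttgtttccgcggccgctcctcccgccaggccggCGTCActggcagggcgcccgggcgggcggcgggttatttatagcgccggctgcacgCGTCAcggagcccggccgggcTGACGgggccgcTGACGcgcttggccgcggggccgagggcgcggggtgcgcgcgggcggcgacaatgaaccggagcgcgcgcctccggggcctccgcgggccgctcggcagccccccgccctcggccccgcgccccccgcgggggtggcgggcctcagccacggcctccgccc
Nr4a3: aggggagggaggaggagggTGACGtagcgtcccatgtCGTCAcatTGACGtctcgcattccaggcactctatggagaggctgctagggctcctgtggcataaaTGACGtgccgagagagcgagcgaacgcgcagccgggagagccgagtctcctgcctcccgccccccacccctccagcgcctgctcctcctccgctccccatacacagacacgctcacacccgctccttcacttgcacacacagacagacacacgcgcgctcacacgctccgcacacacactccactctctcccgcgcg
Fos: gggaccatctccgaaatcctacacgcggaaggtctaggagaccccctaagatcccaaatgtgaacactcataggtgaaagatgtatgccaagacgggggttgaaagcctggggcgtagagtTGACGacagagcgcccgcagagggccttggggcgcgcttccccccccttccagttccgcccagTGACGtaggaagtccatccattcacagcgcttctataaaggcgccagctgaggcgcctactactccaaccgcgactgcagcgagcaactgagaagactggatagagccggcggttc
The Nr4a2 stretch held 5 GTCA cores and 4 TGACG cores, the Nr4a3 stretch 4 of each and the Fos stretch 2 of each. GTCA on either strand was present in 18 of the 21 immediate early genes with a promoter in the table, or 85.7%, against 85.2% of all 32851 promoters and 87% of 27025 genes. TGACG on either strand was present in 14 of 21, or 66.7%, against 20.8% of all promoters and 23% of genes. The full palindrome TGACGTCA was present in 2 of 21, Btg2 and Dusp1, against 1.79% of all promoters. A match describes the letters in this window and is not a measured binding site. In all 3 stretches shown every marked motif lies before the annotated start, whereas DREAM elements are described above as downstream of it. The counts over genes took no account of position.

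Kcnip3 itself was the first gene examined. It read 7.67, 7.43, 7.65 and 7.49 in R6/2 x DREAM+/- striatum and 7.82, 7.77, 7.72 and 7.78 in DREAM+/- striatum, against 9.12, 9.06, 9.04 and 9.23 in R6/2 and 9.41, 9.89, 9.51 and 9.86 in wild type (log2 level). The 4 groups did not overlap and ran, low to high, R6/2 x DREAM+/-, DREAM+/-, R6/2 and wild type. Its interaction was 0.34 (SE 0.13, limma adjusted p = 0.66), from an R6/2 difference of -0.21 on the DREAM+/- background and -0.56 on the wild-type background, and it did not pass. Kcnip3 fell by 1.55 in R6/2 x DREAM+/- against R6/2 (adjusted p = 2.45e-08) and fell by 1.90 in DREAM+/- against wild type (adjusted p = 9.18e-10), both more than 2-fold. Its other probe set averaged 5.40 in R6/2 x DREAM+/- and 5.58 in DREAM+/-, against 8.0 in R6/2 and 8.53 in wild type. The 2 lower means lie under the brightness filter of 5.944. Both probe sets were lower in the groups labelled DREAM+/-, by more than the 2-fold that loss of 1 of 2 equal copies gives. How many intact copies the animals carried was not measured. Which exons the knockout allele lacks is not stated.

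Over all genes the interaction was centred near 0. Its median was -0.0075, and 90% of genes lay between -0.19 and 0.21 (the 5th and 95th percentiles, log2). Of the 13011 genes, 6172 had a positive and 6801 a negative interaction, which is the base for the sign counts of lists below. The median standard error of the interaction was 0.0981, and 66 genes reached an interaction of 0.5 or more in either direction. An interaction of 1 or more was found in 5 genes, Mid1 (1.51), Egr2 (1.05) and the sex-linked Xist (1.83), Kdm5d (-1.01) and Eif2s3y (-1.14), the last 3 at an adjusted p of 0.779 to 0.791. With limma, 0 of 13011 genes passed at an adjusted p under 0.05 (0%), while 898 genes (6.9%) had an unadjusted p under 0.05, where uniform p-values would give 651. Of these 898 genes, 474 had a positive interaction (3.64% of all genes) and 424 a negative one (3.26%). Setting all arrays to a common median turned this split to 559 positive and 274 negative genes, so the balance of signs depends on the centring. The 3 genes with the smallest adjusted p were Mid1 and Tnni1, at 0.0578 each, and Nr4a2 at 0.0587.

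**Figure D1:**
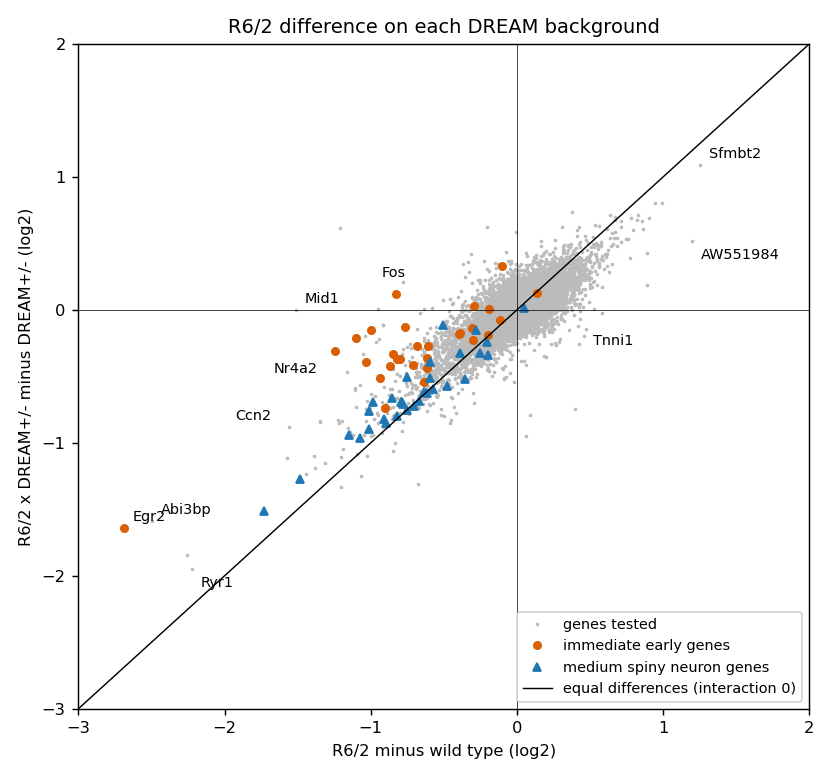
R6/2 minus wild type (horizontal axis, log2) against R6/2 x DREAM+/- minus DREAM+/- (vertical axis, log2) for 13011 genes, with immediate early genes as circles, medium spiny neuron genes as triangles and the line of equal differences. Of the immediate early genes, 28 of 29 lie above the line, with Egr2 at 1.05 above it, while Penk and Ppp1r1b among the medium spiny neuron genes lie within 0.05 of it.

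For each gene, the group mean that lay farthest from the median of the other 3 was taken as the one that stood apart. R6/2 stood apart in 521 of the 898 genes at an unadjusted p under 0.05 (58%), against 38.6% of all genes tested. Wild type stood apart in 180 (20%), R6/2 x DREAM+/- in 134 (14.9%) and DREAM+/- in 63 (7.02%), against 22%, 22% and 17.3% of all genes. With 1 array left out the shares ran between 51.69% and 60.26% for R6/2, 14.70% and 27.12% for wild type, 11.58% and 25.66% for R6/2 x DREAM+/- and 6.65% and 12.06% for DREAM+/-. The share of R6/2 x DREAM+/- was highest without its own replicate 3, and that of DREAM+/- without its own replicate 4. Among the 474 positive genes, R6/2 was low in 241 (50.8%), wild type was high in 109 (23%), R6/2 x DREAM+/- was high in 79 (16.7%) and DREAM+/- was low in 45 (9.49%). Among the 424 negative genes, R6/2 was high in 280 (66%), wild type was low in 71 (16.7%), R6/2 x DREAM+/- was low in 55 (13%) and DREAM+/- was high in 18 (4.25%). All of these shares come from the values that also give the interaction, so they describe its shape and add no test of it. Where the R6/2 difference has the same direction on both backgrounds and is smaller on DREAM+/-, the rule can return only wild type or R6/2.

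**Figure D2:**
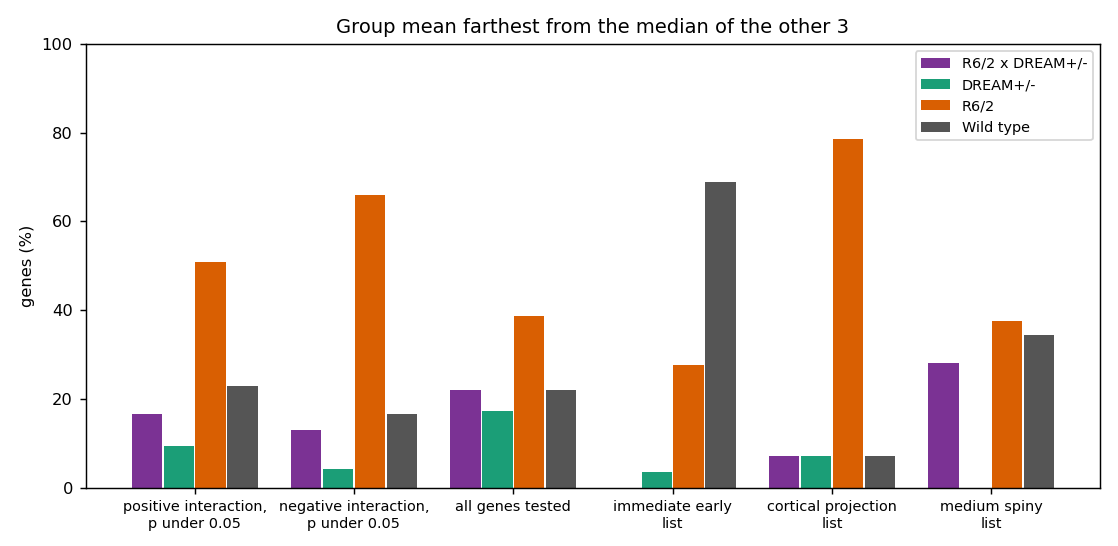
Share of genes (vertical axis, percent) in which each of the 4 group means lay farthest from the median of the other 3, for genes with a positive or negative interaction at an unadjusted p under 0.05, all genes tested and 3 gene lists. R6/2 leads in both tails at 50.8% and 66% and in the cortical list, while wild type leads in the immediate early list with 20 of 29 genes.

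Genes in which R6/2 was low and R6/2 x DREAM+/- was not were led by Mid1 and Nr4a2. Mid1, an X-linked ubiquitin ligase gene that spans the pseudoautosomal boundary in laboratory mice, read 7.90, 8.24, 8.23 and 7.66 in R6/2 x DREAM+/- and 7.55, 7.98, 8.11 and 8.39 in DREAM+/-. In R6/2 it read 5.87, 5.73, 5.70 and 6.13, against 7.30, 7.07, 7.42 and 7.69 in wild type. All R6/2 arrays lay below every other array, and 3 of the 4 were under the brightness filter of 5.944, so that level is near background. Mid1 differed by 0.00 with the transgene on the DREAM+/- background and fell by 1.51 on the wild-type background (limma adjusted p = 6.35e-06), an interaction of 1.51 (95% interval 1.01 to 2.01). It was also 0.64 higher in DREAM+/- than in wild type (adjusted p = 0.0435). Of its 3 probe sets only this 1 was above the filter. The Y-linked Eif2s3y read 6.23 to 7.42 in R6/2 x DREAM+/- and 7.51 to 8.05 in DREAM+/-, against 6.57 to 8.91 in R6/2 and 6.16 to 7.80 in wild type. The interaction of Mid1 lay between 1.36 and 1.82 in every alternative, those with Xist or Eif2s3y as covariate included. Xist stood apart only in R6/2 replicate 1 (6.49, elsewhere 11.04 to 12.16), so its covariate mainly marks that array. The part of sex in the Mid1 values was not tested.

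Nr4a2 (Nurr1), an orphan nuclear receptor induced by activity and best known for its role in dopamine neurons, read 9.30, 9.24, 9.43 and 9.45 in R6/2 x DREAM+/- and 9.55, 9.90, 9.78 and 9.44 in DREAM+/-. It read 8.05, 8.36, 8.52 and 8.61 in R6/2, against 9.62, 9.72, 9.66 and 9.51 in wild type. The R6/2 arrays lay below all others, and the R6/2 x DREAM+/- arrays overlapped with DREAM+/-. The R6/2 difference of Nr4a2 was -0.31 on the DREAM+/- background, which did not pass (limma adjusted p = 0.0651), and on the wild-type background Nr4a2 fell by 1.24 (adjusted p = 5.53e-07). The interaction was 0.93 (95% interval 0.60 to 1.26, adjusted p = 0.0587). Of 5 probe sets above the filter, 4 had a positive interaction and they ranged from -0.08 to 0.93.

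R6/2 was also the group apart, and low, in further genes, some of which were lower in R6/2 x DREAM+/- than in DREAM+/- too. Ccn2, a secreted matrix protein also known as connective tissue growth factor, read 8.28, 8.26, 8.61 and 8.22 in R6/2 x DREAM+/- and 9.24, 9.26, 9.44 and 8.95 in DREAM+/-, against 7.46, 7.73, 7.58 and 7.70 in R6/2 and 9.09, 9.30, 9.10 and 9.21 in wild type. It fell by 0.88 on the DREAM+/- background and fell by 1.56 on the wild-type background, and its groups with the transgene did not overlap with each other (interaction 0.68, limma adjusted p = 0.341). Prss23, a serine protease gene, read 7.55 to 7.95 in R6/2 x DREAM+/- and 7.65 to 8.22 in DREAM+/-, against 6.43 to 6.75 in R6/2 and 7.39 to 7.71 in wild type (interaction 0.72, adjusted p = 0.42). The other Prss23 probe set above the filter had an interaction of 0.18. Pdp1, a phosphatase that activates pyruvate dehydrogenase, fell by 0.69 on the DREAM+/- and by 1.02 on the wild-type background, an interaction of 0.34 with an SE of 0.08, and its R6/2 x DREAM+/- arrays overlapped with R6/2. Hivep1, a zinc finger transcription factor gene (0.41), Art3 (0.38), Ankrd33b (0.42) and Aasdh (0.29) also had R6/2 lowest, with limma adjusted p of 0.42 to 0.476. Insig1, which restrains cholesterol synthesis (0.34), and Gfra2, a receptor for the growth factor neurturin (0.69), had R6/2 low at an adjusted p of 0.556 each.

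Markers of cortical projection neurons moved with this shape. Of 14 such markers tested, 13 had a positive interaction, 5 at an unadjusted p under 0.05 (3.64% of all genes) and none negative at that p, with a median of 0.24 against -0.0075 over all genes. Their mean level was 8.51, 8.53, 8.80 and 8.76 in R6/2 x DREAM+/- and 8.84, 8.69, 8.69 and 8.66 in DREAM+/-, against 8.06, 8.39, 8.42 and 8.31 in R6/2 and 8.70, 8.79, 8.61 and 8.64 in wild type (log2). The 4 R6/2 arrays lay below the other 12, and replicate 1 was lowest. R6/2 was the group apart, and low, in 11 of the 14 genes, against 13% of all genes and 27.4% of all genes with a positive interaction. That base also holds genes that rise with the transgene. Slc17a7, the vesicular glutamate transporter of cortical neurons, had an interaction of 0.80 (limma adjusted p = 0.531). Neurod6 and Tbr1, cortical transcription factors, had 0.96 and 0.64, and Fezf2 and Tshz3 had 0.41 and 0.42.

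With the mean of the cortical markers as a covariate, the interaction of Nr4a2 was 0.68 (limma adjusted p = 0.406, with a range of 0.0371 to 0.406 over its alternatives), that of Mid1 1.82 (adjusted p = 0.0745, range 0.0246 to 0.241) and that of Ccn2 0.47. Gfra2 was then at 0.15, against 0.69 without the covariate. Slc17a7, Neurod6 and Tbr1 were then at 0.21, 0.19 and 0.08, but they are part of that mean, so their drop is built in. Every R6/2 array lay below all others in that mean. The covariate thus cannot separate the amount of neighbouring cortex from genotype, and the part of cortex in the interaction was not tested. Some arrays were unlike the rest. In R6/2 replicate 1 Xist, the transcript of the inactive X chromosome, was at 6.49, while elsewhere it ran between 11.04 and 12.16, and on the third principal component R6/2 x DREAM+/- replicate 3 was at -15.87 and wild-type replicate 3 at 10.57, with all others between -4.87 and 6.1. The lowest correlation within a group was 0.990, between wild-type replicates 3 and 4. Without R6/2 replicate 1 and R6/2 x DREAM+/- replicate 3 Mid1 had an interaction of 1.44, Nr4a2 of 0.79, Ccn2 of 0.54 and Slc17a7 of 0.55.

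**Figure D3:**
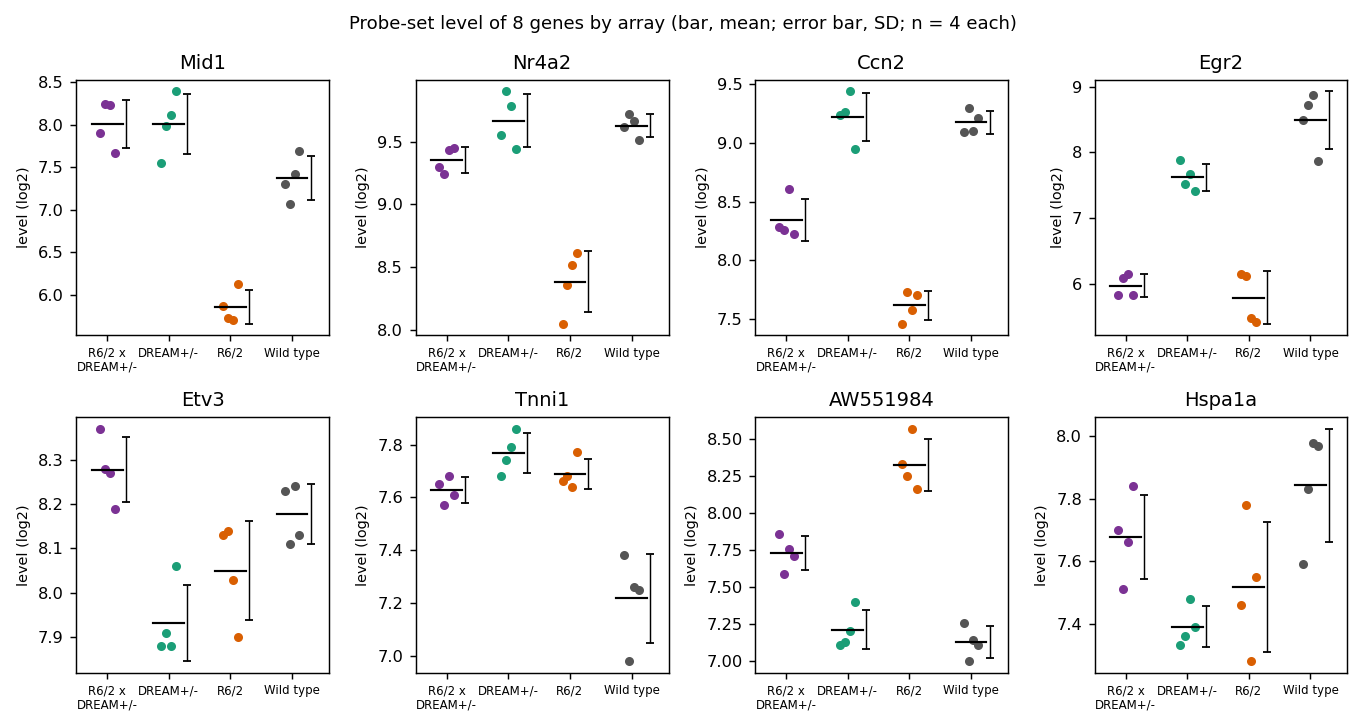
Level (vertical axis, log2) of 8 genes on each array of the 4 genotypes, with the group mean as a bar and the SD as an error bar. R6/2 is the lowest group for Mid1, Nr4a2 and Ccn2 and the highest for AW551984, wild type is the lowest for Tnni1 and the highest for Egr2, and DREAM+/- is the lowest for Etv3 and Hspa1a.

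Genes with R6/2 high were the commonest shape among negative interactions. AW551984, a transcript with no known role assigned here, read 7.86, 7.59, 7.76 and 7.71 in R6/2 x DREAM+/- and 7.11, 7.13, 7.20 and 7.40 in DREAM+/-, against 8.33, 8.25, 8.57 and 8.16 in R6/2 and 7.26, 7.0, 7.14 and 7.11 in wild type. It rose on both backgrounds, by 0.52 on DREAM+/- (limma adjusted p = 0.000602) and by 1.2 on wild type (adjusted p = 1.03e-07), and the 2 groups with the transgene did not overlap. Its interaction was -0.68 (95% interval -0.94 to -0.42, adjusted p = 0.121). Zfand4 (-0.43), Zfp618 (-0.36), 2610524H06Rik (-0.54), Tmem91 (-0.43), Spring1 (-0.41) and Rab34, a small GTPase of the Golgi and primary cilium (-0.35), had R6/2 as the highest group. So did 9330133O14Rik, 9330151L19Rik, LOC432842 and Sft2d3, at -0.35 to -0.38. Limma adjusted p for these 10 genes lay between 0.42 and 0.496. In Zfand4, Rab34 and Tmem91 the R6/2 difference on the DREAM+/- background was 0.03, -0.01 and -0.04, whereas each rose by 0.34 to 0.45 on the wild-type background.

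Wild type stood apart in other leading genes. Tnni1, the slow skeletal troponin I gene, read 7.65, 7.57, 7.68 and 7.61 in R6/2 x DREAM+/-, 7.68, 7.74, 7.79 and 7.86 in DREAM+/- and 7.66, 7.68, 7.64 and 7.77 in R6/2, against 7.38, 6.98, 7.26 and 7.25 in wild type. All wild-type arrays lay below the 12 others. Tnni1 rose by 0.55 in DREAM+/- and by 0.47 in R6/2 against wild type, and its R6/2 difference on the DREAM+/- background was -0.14 (limma adjusted p = 0.198), which gave an interaction of -0.61 (95% interval -0.82 to -0.40, adjusted p = 0.0578). Both of these simple differences share the wild-type arrays, as does the interaction. Ninj2, a membrane protein gene first described in injured nerve, had the same shape (-0.52), and 1700086L19Rik had wild type as the highest group (0.45). Dnajb5, a co-chaperone gene, was also highest in wild type (0.39, 3 of 3 probe sets positive).

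In further leading genes DREAM+/- or the combined genotype stood apart. Etv3, an ETS family repressor gene, read 8.37, 8.28, 8.27 and 8.19 in R6/2 x DREAM+/- and 7.88, 7.91, 7.88 and 8.06 in DREAM+/-, against 8.13, 8.14, 8.03 and 7.90 in R6/2 and 8.23, 8.11, 8.24 and 8.13 in wild type. It fell by 0.25 in DREAM+/- against wild type (limma adjusted p = 0.0385) and rose by 0.35 with the transgene on that background (adjusted p = 0.00117), an interaction of 0.47 (adjusted p = 0.139). Only 2 of its 4 probe sets were positive, with a range of -0.33 to 0.47, so the probe sets of Etv3 disagree. Arid4a, a chromatin regulator gene, was lowest in DREAM+/- (0.31), and Inppl1 (SHIP2), an inositol phosphatase gene, was highest there, at 8.46 to 8.52 against 7.96 to 8.19 in wild type (-0.43). Mboat2, a lipid acyltransferase gene, was highest in R6/2 x DREAM+/-, at 9.36 to 9.58, against 9.05 to 9.14 in DREAM+/-, 8.72 to 8.84 in R6/2 and 8.67 to 9.06 in wild type (0.43). Dlk1, an imprinted Notch ligand gene, was lowest in the combined genotype, at 6.39 to 6.85, against 6.82 to 6.93 in DREAM+/- (-0.54).

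Of the 34 immediate early genes listed, 29 were tested. Of these 29, 28 were positive, against 6172 of 13011 genes tested. Of the 28, 17 had an unadjusted p under 0.05, where 3.64% of all genes reached that p in that direction, and 0 were negative at that p. None passed over all genes. The median interaction of the list was 0.33 against -0.0075 over all genes, and it stayed between 0.25 and 0.43 in all 28 alternatives. The count of 17 ran between 12 and 19 when 1 array was left out, with 12 without R6/2 replicate 3. It was 17 without wild-type replicate 3, 19 without wild-type replicate 4, 18 without R6/2 replicate 1 and R6/2 x DREAM+/- replicate 3, and 13 with the cortical markers as covariate. In all but 1 of the 29 genes the size of the R6/2 difference was smaller on the DREAM+/- background. Over all genes tested this held for 68.1% of 4606 genes called for the averaged R6/2 effect and 56.1% of the other 8405.

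The mean level of the 29 genes was 8.41, 8.51, 8.57 and 8.52 in R6/2 x DREAM+/-, 8.86, 8.77, 8.78 and 8.73 in DREAM+/-, 8.59, 8.59, 8.28 and 8.33 in R6/2, and 9.08, 9.25, 9.22 and 8.98 in wild type (log2). Wild type lay above DREAM+/- on every array, DREAM+/- lay above both groups with the transgene, and those 2 overlapped. In R6/2 x DREAM+/- against DREAM+/-, 12 genes fell and 0 rose (7.87% of all genes fell and 7.07% rose), with a median of -0.27. In R6/2 against wild type, 25 fell and 0 rose (11.9% of all genes fell and 13.5% rose), with a median of -0.68. In DREAM+/- against wild type, 8 fell and 0 rose (2.08% of all genes fell and 1.6% rose), with a median of -0.31, and these were Egr2, Egr4, Fosb, Junb, Nr4a3, Arc, Npas4 and Nab2. In R6/2 x DREAM+/- against R6/2, 5 rose (5.33% of all genes rose) and 1 fell (8.65% of all genes fell), with a median of 0.02. The 5 that rose were Nr4a2, Homer1, Dusp6, Klf10 and Spred1, and Npas4 fell. Each pair of these comparisons that shares a group shares its arrays.

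Wild type was the group apart, and high, in 20 of the 29 genes, against 11.7% of all genes and 24.5% of all genes with a positive interaction. R6/2 was the group apart in 8, DREAM+/- in 1 and R6/2 x DREAM+/- in 0. The 8 led by R6/2 include Nr4a2, Dusp6, Klf10, Egr3 and Spred1. These shares again use the values that give the interaction. The smaller R6/2 difference of most members on the DREAM+/- background largely fixes the 0 for R6/2 x DREAM+/-. The base of all genes with a positive interaction also holds genes that rise with the transgene.

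**Figure D4:**
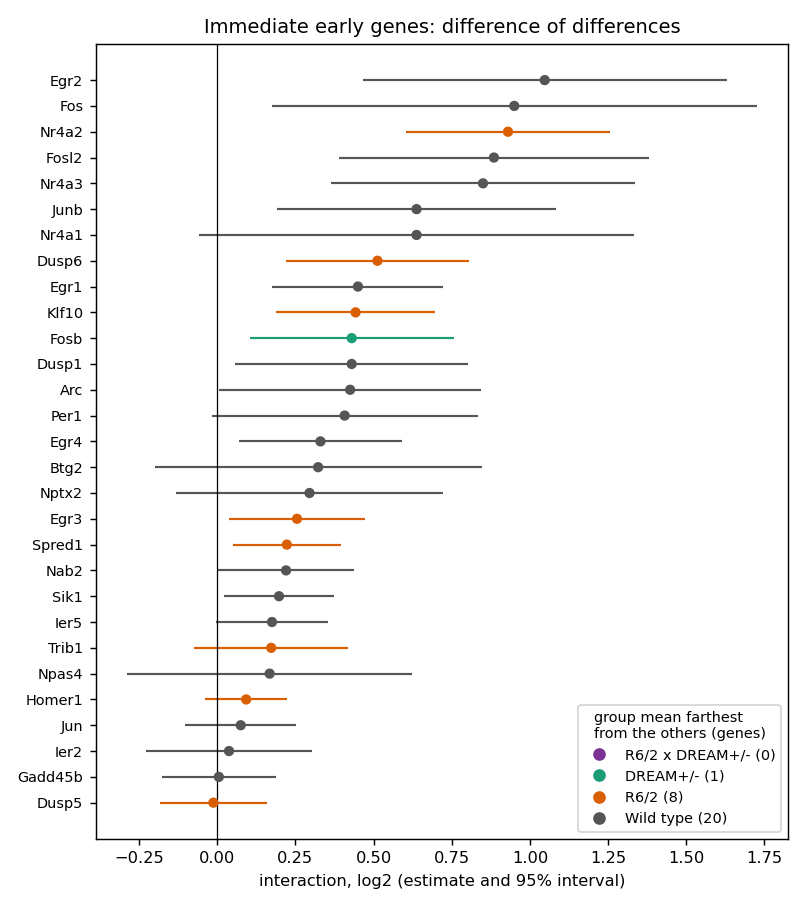
Interaction (horizontal axis, log2, with its 95% interval) of the 29 immediate early genes tested, coloured by the group mean that lay farthest from the others. Estimates run between -0.01 and 1.05, the 20 genes led by wild type include Egr2, Fos, Fosl2, Nr4a3 and Junb, and 0 were led by R6/2 x DREAM+/-.

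Egr2, a zinc finger factor of the Egr family, had the highest interaction of the list. It read 5.83, 6.10, 6.16 and 5.83 in R6/2 x DREAM+/- and 7.88, 7.52, 7.68 and 7.41 in DREAM+/-, against 6.16, 6.12, 5.48 and 5.43 in R6/2 and 8.49, 8.72, 8.87 and 7.87 in wild type. The 2 groups with the transgene overlapped and lay at or near the brightness filter of 5.944, with an R6/2 mean of 5.80. Egr2 fell by 1.64 on the DREAM+/- background, fell by 2.69 on the wild-type background, and fell by 0.87 in DREAM+/- against wild type (limma adjusted p = 0.0177). The interaction was 1.05 (95% interval 0.47 to 1.63, adjusted p = 0.496), and it was 1.11 without R6/2 replicate 1 and R6/2 x DREAM+/- replicate 3. Related Egr genes ran the same way at lower values, with Egr1 at 0.45, Egr4 at 0.33 and Egr3 at 0.26, the last with 1 of its 2 probe sets negative.

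In Fos family genes wild type was mostly the group apart. Fos read 8.63, 8.94, 8.35 and 9.09 in R6/2 x DREAM+/- and 9.0, 8.39, 8.53 and 8.6 in DREAM+/-, against 9.19, 9.13, 8.0 and 8.32 in R6/2 and 9.60, 9.60, 9.95 and 8.80 in wild type. R6/2 replicates 1 and 2 lay above replicates 3 and 4, and all groups overlapped, with wild-type replicate 4 the lowest of its group. Its interaction of 0.95 had an SE of 0.37 and did not pass (limma adjusted p = 0.674). Without R6/2 replicate 1 and R6/2 x DREAM+/- replicate 3 the value for Fos was 1.26. Fosl2, which encodes the Fos family member Fra-2, read 7.76, 7.94, 8.27 and 7.79 in R6/2 x DREAM+/- and 8.26, 8.13, 8.13 and 8.09 in DREAM+/-, against 8.08, 7.98, 7.47 and 7.08 in R6/2 and 8.70, 8.81, 8.93 and 8.56 in wild type (interaction 0.89, adjusted p = 0.502). Its wild-type arrays lay above all others. Junb read 7.43 to 7.57 in R6/2 x DREAM+/- and 7.52 to 7.70 in DREAM+/-, against 7.27 to 7.82 in R6/2 and 7.84 to 8.84 in wild type (0.64). Fosb was the 1 gene of the list with DREAM+/- apart and low, at 6.07 to 6.29 against 6.61 to 7.01 in wild type, and read 6.41 to 6.81 in R6/2 x DREAM+/- and 6.5 to 6.99 in R6/2 (0.43).

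The Nr4a family split between the shapes. Nr4a3 read 8.63, 8.92, 9.0 and 8.96 in R6/2 x DREAM+/- and 9.23, 8.85, 9.03 and 8.99 in DREAM+/-, against 9.09, 8.96, 8.34 and 8.15 in R6/2 and 9.47, 9.75, 9.78 and 9.53 in wild type. It fell by 0.61 in DREAM+/- against wild type (limma adjusted p = 0.0468), and the R6/2 difference on the DREAM+/- background, -0.15, did not pass (adjusted p = 0.606), which gave an interaction of 0.85. Of its 2 probe sets above the filter, 1 was at -0.04. Nr4a1 had an interaction of 0.64 with an interval of -0.06 to 1.33, while Nr4a2 had R6/2 as the group apart, as given above, and a difference of 0.04 between DREAM+/- and wild type.

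Synaptic and feedback genes of the list had lower interactions. Arc, a synaptic plasticity gene, fell by 0.51 on the DREAM+/- and by 0.94 on the wild-type background (interaction 0.43). The feedback inhibitors of MAP kinase signalling Dusp1 and Dusp6, which encode phosphatases, had 0.43 and 0.51, and Spred1, an inhibitor of Ras signalling, had 0.22. Klf10, a zinc finger factor induced by TGF-beta, had 0.44. Npas4, a factor specific to neuronal activity, fell in all 4 comparisons, by 0.74 on DREAM+/- and by 0.91 on wild type with the transgene, by 0.65 in R6/2 x DREAM+/- against R6/2 and by 0.82 in DREAM+/- against wild type. Its interaction was 0.17 (95% interval -0.29 to 0.62). Dusp6, Nr4a3, Egr1, Egr3, Egr4, Fosb, Arc, Dusp1, Klf10, Spred1, Homer1, Nab2, Neurod6, Tbr1, Xbp1, Xist, Kdm5d and Eif2s3y were named after their values were seen, the other genes by a fixed rule.

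**Figure D5:**
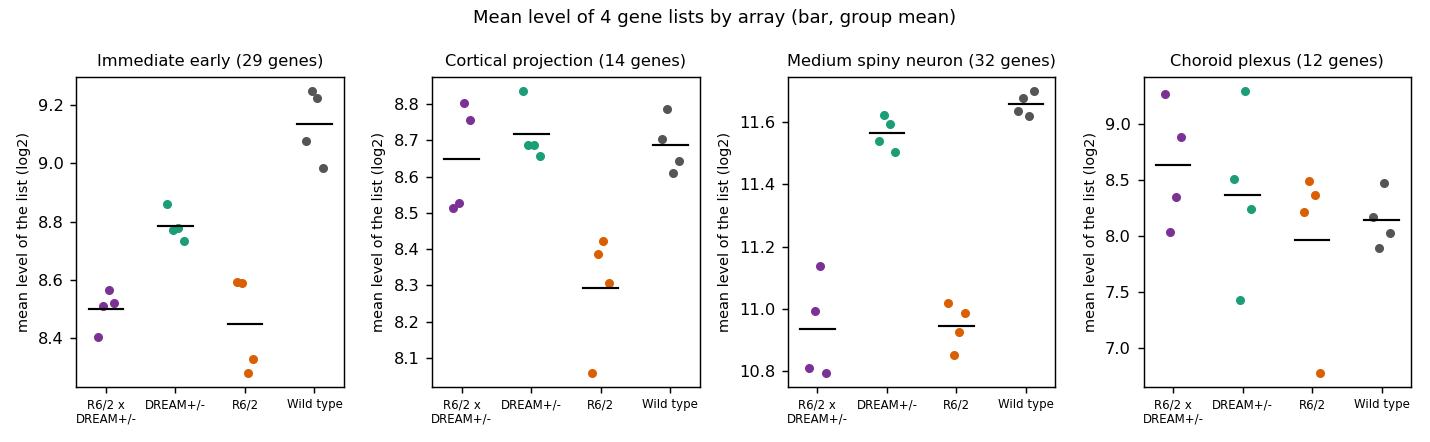
Mean level (vertical axis, log2) of 4 gene lists on each array, by genotype, with group means as bars. Immediate early genes are highest in wild type and lowest in both groups with the transgene, cortical markers are lowest in R6/2, medium spiny neuron genes are low in both groups with the transgene, and choroid plexus markers vary within groups.

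Genes reported as DREAM targets, a list of known or proposed targets that shares 5 of its 13 tested members with the immediate early list, had a positive interaction in 11 of 13, with a median of 0.18. At an unadjusted p under 0.05, 4 were positive (3.64% of all genes) and 0 negative, namely Fos, Fosl2, Junb and Xbp1 (0.20). Pdyn, the prodynorphin gene and a classical DREAM target, had an interaction of -0.01 (95% interval -0.31 to 0.29). It read 7.18, 7.54, 7.68 and 7.56 in R6/2 x DREAM+/- and 8.02, 8.23, 8.41 and 8.03 in DREAM+/-, against 7.88, 7.63, 7.85 and 7.96 in R6/2 and 8.51, 8.53, 8.52 and 8.45 in wild type. It fell by 0.68 on the DREAM+/- background and fell by 0.67 on the wild-type background. Hrk, a pro-apoptotic BH3 gene, had 0.36 (-0.03 to 0.76), with 1 of its 2 probe sets at -0.08. Atf6, an endoplasmic reticulum stress sensor reported to bind DREAM, had -0.04 (-0.33 to 0.26), with falls of 0.55 on the DREAM+/- and 0.51 on the wild-type background.

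Kv4 channel complex genes had a positive interaction in 6 of 9, 2 at an unadjusted p under 0.05 (3.64% of all genes), which were Dpp10 and the disrupted gene Kcnip3 itself. Dpp10, an auxiliary subunit of Kv4 channels, read 9.63 to 9.92 in R6/2 x DREAM+/- and 9.69 to 9.85 in DREAM+/-, against 9.71 to 9.88 in R6/2 and 9.93 to 10.11 in wild type. Wild type lay above all other arrays (interaction 0.27, limma adjusted p = 0.591). Of 26 calcium handling genes, 18 were positive with a median of 0.04, and 0 reached an unadjusted p under 0.05 in either direction. Ryr1, a calcium release channel gene that fell by 1.95 on the DREAM+/- background and fell by 2.23 on the wild-type background, had 0.28 (95% interval -0.33 to 0.88). Without R6/2 replicate 1 and R6/2 x DREAM+/- replicate 3 it was at 0.005, and this replicate 3 was the highest of its group for Ryr1 at 7.03.

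Medium spiny neuron genes fell with the transgene on both backgrounds. Of 32 tested, 29 fell on the DREAM+/- background (7.87% of all genes) with a median of -0.67, and 30 fell on the wild-type background (11.9% of all genes) with a median of -0.73. The median interaction was 0.07, 22 were positive, and 2 positive (3.64% of all genes) and 0 negative members had an unadjusted p under 0.05, namely Rgs4, a regulator of G protein signalling (0.26), and Strn, the striatin gene (0.29). Their mean level was 10.80 to 11.14 in R6/2 x DREAM+/- and 11.50 to 11.62 in DREAM+/-, against 10.85 to 11.02 in R6/2 and 11.62 to 11.70 in wild type. Penk, the enkephalin precursor gene, read 12.23, 12.43, 12.56 and 12.13 in R6/2 x DREAM+/- and 13.16, 13.22, 13.28 and 13.09 in DREAM+/-, against 12.41, 12.26, 12.34 and 12.44 in R6/2 and 13.22, 13.31, 13.21 and 13.30 in wild type, an interaction of 0.05 (95% interval -0.18 to 0.28). Ppp1r1b, the DARPP-32 gene, had 0.00 (-0.25 to 0.26) and Drd2, the dopamine receptor of the indirect pathway, had 0.07 (-0.44 to 0.57), and the sign of each of these 3 changed under some alternatives. Drd1, the dopamine receptor of the direct pathway, had 0.25 (-0.01 to 0.51) and Cnr1, the cannabinoid receptor gene, had 0.21 (-0.03 to 0.45), with 1 of 2 Cnr1 probe sets at -0.17. Scn4b, a sodium channel subunit gene, had 0.21, and Ddit4l, an inhibitor of mTOR signalling, had 0.22, both with intervals that held 0.

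Of other genes with large R6/2 differences, Abi3bp, a matrix protein gene, read 4.90, 5.46, 6.13 and 5.05 in R6/2 x DREAM+/- and 6.94, 7.08, 7.12 and 6.75 in DREAM+/-, against 4.96, 4.72, 5.12 and 4.19 in R6/2 and 7.44, 7.24, 7.24 and 7.05 in wild type. All R6/2 arrays and 3 of 4 R6/2 x DREAM+/- arrays were under the brightness filter of 5.944, so its interaction of 0.91 (95% interval 0.26 to 1.55, limma adjusted p = 0.581) rests on dim values. Crh, the corticotropin-releasing hormone gene, was under the filter on all arrays with the transgene and had 0.42 (-0.17 to 1.0). Sfmbt2 and Pcdh20, which rose on both backgrounds by 1.09 and 0.81 on DREAM+/- and by 1.26 and 0.95 on wild type, had -0.17 and -0.14, with intervals that held 0. Of these, Abi3bp alone had an unadjusted p under 0.05.

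Heat shock genes had 12 positive of 15, with 3 positive (3.64% of all genes) and 0 negative at an unadjusted p under 0.05. Hspa1a, the inducible Hsp70 chaperone, read 7.70, 7.51, 7.66 and 7.84 in R6/2 x DREAM+/- and 7.33, 7.36, 7.48 and 7.39 in DREAM+/-, against 7.46, 7.78, 7.28 and 7.55 in R6/2 and 7.59, 7.83, 7.98 and 7.97 in wild type. All DREAM+/- arrays lay below the R6/2 x DREAM+/- and the wild-type arrays, while R6/2 overlapped with wild type through replicate 2. Means were 7.68 in R6/2 x DREAM+/-, 7.39 in DREAM+/-, 7.52 in R6/2 and 7.84 in wild type. Wild type was thus the group apart, and high (interaction 0.61, limma adjusted p = 0.42). Its near-identical neighbour Hspa1b, whose probes can share transcripts with Hspa1a, had 0.99 with an SE of 0.31, and Dnajb5 is given above. The unfolded protein response list had 4 positive (3.64% of all genes) and 0 negative of 30 at that p, which were Hspa5, the main chaperone of the endoplasmic reticulum (0.24), Dnajc3 (0.29), Hyou1 (0.26) and Xbp1. For Hspa5, 1 of 3 probe sets was negative. The list median was 0.06, and -0.003 with the cortical markers as covariate.

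Clock genes had 13 positive of 19, 3 of them at an unadjusted p under 0.05 (3.64% of all genes) and 0 negative at that p, with a median of 0.10. Hlf, a PAR bZIP output factor of the clock, read 9.46, 9.86, 9.81 and 9.63 in R6/2 x DREAM+/- and 10.02, 10.03, 9.95 and 9.92 in DREAM+/-, against 9.46, 9.40, 9.26 and 9.42 in R6/2 and 9.95, 10.04, 10.20 and 10.24 in wild type. It fell on both backgrounds, by 0.29 on DREAM+/- and 0.72 on wild type (interaction 0.43, limma adjusted p = 0.506). Arntl, the gene of the core activator BMAL1, was at -0.15 on the DREAM+/- background, which did not pass, and fell by 0.46 on wild type (interaction 0.31, adjusted p = 0.496), and Bhlhe40, a repressor of the clock, had 0.29. The time of day of tissue collection is not stated.

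Other pathways stayed near the median of all genes. The list medians were -0.005 for 19 cholesterol synthesis genes, 0.01 for 19 glutamate receptor and postsynaptic genes, 0.04 for 8 neurotrophin system genes, -0.03 for 15 interferon and MHC class I genes and -0.04 for 30 oxidative phosphorylation genes. Of the oxidative phosphorylation genes 23 were negative, against 6801 of 13011 genes tested, and 1 of them had an unadjusted p under 0.05 (3.26% of all genes). R6/2 was the group apart, and high, in 18, against 25.6% of all genes and 48.9% of all genes with a negative interaction. Of 12 GABA system genes 6 were positive and 6 negative. Gria3, an AMPA receptor subunit gene (0.20), Fdft1, the squalene synthase gene (0.19), and Insig1 were the members of the glutamate and cholesterol lists with an unadjusted p under 0.05. In the interferon and GABA lists 0 genes reached an unadjusted p under 0.05 in either direction.

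Genes that respond to the transgene were taken by the mean of the R6/2 differences on DREAM+/- and on wild type, with equal weight for each. Of 4606 such genes (limma adjusted p under 0.05), 3135 (68.1%) had a smaller R6/2 difference on the DREAM+/- background, against 4714 of the other 8405 genes (56.1%). That 68.1% was 59.2% without R6/2 x DREAM+/- replicate 3, the lowest over all alternatives, and 80.2% with the cortical markers as covariate, the highest. Signed along the averaged effect, the median R6/2 difference was 0.19 on the DREAM+/- background against 0.23 on the wild-type background, with a median interaction of -0.05. Genes lower and higher in R6/2 were alike in this share, with 68.7% of 2020 and 67.6% of 2586. Along the effect, the median of DREAM+/- minus wild type was 0.0375 in the lower genes and -0.02 in the higher genes. The median of R6/2 x DREAM+/- minus R6/2 was -0.0175 and -0.0625. Over all genes tested the unsigned medians of these 2 differences were -0.025 and -0.0325. Signing along the effect turns such a common shift opposite ways in lower and higher genes. These medians thus do not set the lower and higher genes apart. Among 29 genes with an averaged difference of at least 2-fold, 26 were smaller on the DREAM+/- background, with a median of -0.21 along the effect. At an unadjusted p under 0.05, 408 responsive genes had the smaller difference on the DREAM+/- background and 48 the larger. Genes are not independent replicates, and no test was made of these shares. Without R6/2 x DREAM+/- replicate 3, whose array stands apart, the median interaction along the effect was -0.03.

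Markers of other cells were read beside these results. The astrocyte, oligodendrocyte, microglia and vascular lists had medians between -0.01 and 0.05, and together 1 positive and 0 negative genes at an unadjusted p under 0.05. All 12 choroid plexus markers had a positive interaction, with a median of 0.44, yet 0 reached an unadjusted p under 0.05. Their mean level was 9.27, 8.04, 8.35 and 8.89 in R6/2 x DREAM+/- and 8.51, 7.43, 9.30 and 8.25 in DREAM+/-, against 8.21, 8.49, 8.37 and 6.78 in R6/2 and 8.17, 7.89, 8.47 and 8.03 in wild type, with SDs within groups of 0.25 to 0.80. Without R6/2 replicate 4 the choroid plexus median was -0.01. Of 16 interneuron markers 12 were negative, with a median of -0.11. R6/2 x DREAM+/- was the group apart, and low, in 11 of them, against 11.3% of all genes and 21.6% of all genes with a negative interaction. Th, the gene of the dopamine-synthesis enzyme tyrosine hydroxylase, had -0.32 and Cck, the cholecystokinin gene, which cortical neurons also express, had 0.47. For blood only 1 marker, Alas2, could be tested, at 0.17. Of 8 markers of oligodendrocyte precursors 7 were negative, with a median of -0.07, and Lhfpl3 was at -0.36 with an unadjusted p under 0.05. Of 15 markers of neighbouring forebrain regions 11 were negative, with a median of -0.22, and Prkcd (-0.41), Nts (-0.34) and Isl1 (-0.29) had an unadjusted p under 0.05. The part of these other cells in the interaction was not tested.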

How the data were processed

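Total RNA of striatum from 16 samples, 4 of each of 4 genotypes, was hybridised to Affymetrix Mouse Genome 430 2.0 arrays, and the authors deposited 1 log2 value per probe set and array, 3.34 to 14.71. Per the submitters' processing notes the values came from RMA in the affy package, with versions and genome build not given in the sources used here. The deposited log2 values were used as they were. Of 45101 probe sets, 34945 had 1 gene symbol in GEO's platform annotation, 932 had several, 9160 had none and 64 were controls. Each gene was represented by its probe set with the highest mean, and probe sets under the 40th percentile of means (5.944) were left out, which left 13011 of 18193 genes. The number of arrays limits the precision, and arrays of a group correlated at 0.990 to 0.998.

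Group means were fitted with limma 3.58.1 in R 4.3.3 on all 16 arrays, the interaction and 4 simple differences were taken as contrasts, and p-values were adjusted over all genes by the Benjamini-Hochberg method. The fit was tested on simulated data. Alternatives were quantile normalization, a common array median, no filter or the 60th percentile, every probe set, array weights, trended and robust variance, the replicate block, Xist, Eif2s3y or the mean cortical marker level as covariate, and leaving out each array or both R6/2 replicate 1 and R6/2 x DREAM+/- replicate 3. The genes named are Kcnip3, the 15 genes of smallest interaction p in each direction, up to 3 per list by p, and a fixed set of 21. Gene lists (24, with 379 of 445 names tested) and members were chosen with earlier results of these data known.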

Additional observations from a re-analysis of the deposited data

Results flagged for a closer look

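In 7 genes named above every R6/2 x DREAM+/- array lay on one side of the DREAM+/- mean and every R6/2 array on the other side of the wild-type mean. Their interactions were -0.61 for Tnni1, 0.47 for Etv3, 0.61 for Hspa1a, -0.52 for Ninj2, -0.36 for Sft2d3, 0.42 for Tshz3 and 0.29 for Aasdh. The interaction itself was tested with limma in each, and adjusted p was 0.0578 for Tnni1, 0.139 for Etv3, 0.506 for Tshz3, 0.476 for Aasdh and 0.42 for the other 3, so none passed.

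A single array lay far from the other 3 of its group in 17 of 348 groups of 4 examined, where chance gives about 1 in 20. The gap to the nearest array, as a share of the group's range, was above Dixon's 95% critical value for 4 arrays in each. In R6/2 x DREAM+/- these were Ccn2 (0.846) and Sfmbt2 (0.887), both with replicate 3 high, Zfp618 with replicate 2 low (0.917), Hyou1 with replicate 2 low (1.0) and Drd1 with replicate 1 low (0.902). In DREAM+/- they were Etv3 with replicate 4 high (0.833), 1700086L19Rik (0.846) and Gfra2 (0.936) with replicate 1 high, Junb (0.833) and Drd2 (0.862) with replicate 4 low, and Egr3 with replicate 3 low (0.842). In R6/2 they were Sft2d3 with replicate 1 low (0.850) and 2610524H06Rik with replicate 3 high (0.860). In wild type they were Npas4 with replicate 4 low (0.841), Rab34 with replicate 3 low (0.929), Th with replicate 4 high (0.862) and 9330133O14Rik with replicate 2 high (0.933).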

How the results depend on the processing

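No gene passed in the interaction at an adjusted p under 0.05, and limma gave 0 calls under most alternatives, but Mid1, Tnni1 and Nr4a2 lay close to the threshold. Quantile normalization gave 1 call (Mid1), a common array median 3 and the 60th percentile filter 3, each time these genes, and leaving out 1 array gave 0 to 2. Mid1 passed without R6/2 x DREAM+/- replicate 4, DREAM+/- replicate 4, R6/2 replicate 4 or wild-type replicate 2, Nr4a2 without R6/2 replicate 4 and Tnni1 without wild-type replicate 1 or 2. Adjusted p ranged from 0.0246 to 0.241 for Mid1, 0.0264 to 0.295 for Tnni1 and 0.0371 to 0.406 for Nr4a2. At an unadjusted p under 0.05, negative genes numbered 274 with a common array median, 654 with no filter, 257 with the 60th percentile filter, 682 probe sets with every probe set, 780 with the cortical covariate, 740 without both R6/2 replicate 1 and R6/2 x DREAM+/- replicate 3 and 305 to 670 without 1 array, the highest without R6/2 x DREAM+/- replicate 3. Positive genes numbered 743 with every probe set and 362 to 635 without 1 array. Positive genes made up 52.78% of those at that p, and 67.11% with a common array median, 35.64% with the Eif2s3y covariate, 33.73% with the cortical covariate and 36.04% without both of those arrays. With the cortical covariate, which is the mean of that list, the cortical list median was 0.0183. The median along the R6/2 effect was -0.117 with that covariate and -0.0567 to -0.0292 without 1 array, the last without R6/2 x DREAM+/- replicate 3. The immediate early count was 24 probe sets with every probe set, 13 with the cortical covariate and 12 to 19 without 1 array. Signs turned only for values near 0 or with the cortical covariate. Ppp1r1b was at -0.0197 with quantile normalization, -0.0796 with array weights, -0.0342 without both of those arrays and -0.0675 to 0.0625 without 1 array. Pdyn was at 0.005 with a common array median, 0.0205 with the Xist and 0.005 with the Eif2s3y covariate, and -0.0767 to 0.0933 without 1 array. Penk was at -0.0274 with array weights, -0.0108 without both and -0.0267 to 0.117 without 1 array. Drd2 was at -0.106 with array weights, -0.0403 with the Eif2s3y and -0.151 with the cortical covariate, -0.147 without both and -0.158 to 0.189 without 1 array. With the cortical covariate Ryr1 was at -0.0086 and Cck at -0.113, and Atf6 was at -0.138 to 0.0392 without 1 array. Over 87 genes named, 2368 of 2418 values kept their direction and side of the threshold, and the cause of the others was not tested. With the replicate block there were 0 calls, with 509 positive and 455 negative genes at an unadjusted p under 0.05. Of 24 same-numbered pairs, 11 correlated above 0.1 (range -0.413 to 0.287), and 7 of 16 arrays correlated best with their own number. These values do not settle whether equal replicate numbers pair the samples, and the main fit used no pairing.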
